A study of Mus musculus with 4 samples.

Results

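The genes described here are 36 genes of glycolysis and of the cellular response to low oxygen, chosen by gene symbol from a fixed list and not by their values. They are 36 of the 32285 genes counted, and all 36 had UMIs (unique molecular identifiers, each counted as 1 captured RNA molecule) in every library. Single-cell RNA sequencing had been carried out on 4 mouse tissues, each a single library. The first was normal pancreas. The second was pancreas with a suture ligation that brings on pancreatitis. In the other two, KPC cells, a mouse pancreatic cancer line, had been injected into the ligated pancreas, and the mice received weekly intraperitoneal saline (control tumour) or weekly intraperitoneal AF12198 (treated tumour). AF12198 is a peptide antagonist of IL1R1, the receptor through which interleukin-1 signals. Whether it blocked the receptor in these mice was not tested here. Harvest is listed at 4 weeks for all 4 libraries. The sources used here name no strain, age, sex or number of mice for any library, and the tumours come from 1 cell line.

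Glycolysis breaks glucose down to pyruvate in the cytosol. Lactate dehydrogenase turns pyruvate into lactate, which monocarboxylate transporters carry across the plasma membrane. At low oxygen the factors HIF-1α and HIF-2α escape hydroxylation by the EGLN enzymes, pair with ARNT and bind short sites with the core ACGTG or GCGTG. Many glycolytic genes carry such sites. Pancreatic tumours are known for dense matrix and poor perfusion, and activated neutrophils and macrophages for a strong reliance on glycolysis.

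By role the 36 genes are 2 glucose transporters (Slc2a1, Slc2a3), 16 enzymes of the path from glucose to lactate, 2 switches of flux (Pfkfb3, Pdk1), 2 lactate transporters (Slc16a1, Slc16a3), 4 genes of oxygen sensing (Hif1a, Epas1, Egln1, Egln3), 7 hypoxia-induced genes (Bnip3, Bnip3l, Ndrg1, Adm, Car9, Ankrd37, Ddit4) and 3 further hypoxia-induced genes of protein folding and collagen maturation (P4ha1, P4ha2, Ero1l).

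A RefSeq promoter window on GRCm38.p6 was at hand for 32 of the 36. In the 250 bases before the first listed start, ACGTG or GCGTG (searched on both strands, hence also as CACGT and CACGC, with CACGTG counted on each strand) occurred in 26 of 32, or 81.2%. The share was 38.6% over all 27025 genes of the same table and 43.8% over its 17491 protein-coding genes. The list was made of glycolysis and low-oxygen genes, and the gene sets were not matched for base content. These shares are a description and no test of enrichment. The last 160 bases before the start are given for 6 genes that the results below turn on, with the matches in capitals. They are Pgk1 and Ldha, enzymes with wide differences between the tumour and the ligated pancreas, Slc16a3 and Adm, whose levels set cell classes apart, and Bnip3 and Gapdh, which stood in opposite directions between the tumours. Pgk1 lies at chrX:106186940-106187099, plus strand, Ldha at chr7:46845644-46845803, plus strand, Slc16a3 at chr11:120948907-120949066, plus strand, Bnip3 at chr7:138909507-138909666, minus strand, Adm at chr7:110627497-110627656, plus strand, and Gapdh at chr6:125165774-125165933, minus strand. The windows of Ldha, Slc16a3 and Gapdh lie inside the RefSeq spans of these genes (chr7:46842274-46855627, chr11:120948484-120959000 and chr6:125161852-125166467). The start used for them is thus not the outermost one.
Pgk1: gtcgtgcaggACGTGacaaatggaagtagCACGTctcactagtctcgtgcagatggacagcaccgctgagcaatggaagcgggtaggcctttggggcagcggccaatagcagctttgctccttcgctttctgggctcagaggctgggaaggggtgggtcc
Ldha: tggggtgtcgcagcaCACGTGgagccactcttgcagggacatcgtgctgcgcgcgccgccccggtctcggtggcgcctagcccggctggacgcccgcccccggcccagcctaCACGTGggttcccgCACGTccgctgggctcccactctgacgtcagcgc
Slc16a3: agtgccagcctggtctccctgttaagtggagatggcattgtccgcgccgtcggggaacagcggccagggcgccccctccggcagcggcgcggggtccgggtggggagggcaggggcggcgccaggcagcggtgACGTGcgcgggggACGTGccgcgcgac
Bnip3: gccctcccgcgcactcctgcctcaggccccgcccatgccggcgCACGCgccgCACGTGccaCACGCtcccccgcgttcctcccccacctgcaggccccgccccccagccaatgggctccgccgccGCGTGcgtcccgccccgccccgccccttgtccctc
Adm: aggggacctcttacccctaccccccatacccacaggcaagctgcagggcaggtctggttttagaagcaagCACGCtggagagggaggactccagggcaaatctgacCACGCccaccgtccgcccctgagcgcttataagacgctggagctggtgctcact
Gapdh: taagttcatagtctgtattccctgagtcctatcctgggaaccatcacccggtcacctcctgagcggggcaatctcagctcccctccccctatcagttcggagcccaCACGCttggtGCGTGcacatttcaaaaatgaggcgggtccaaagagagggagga
Within these 160 bases Ldha and Bnip3 held 5 matches each, counting CACGTG on both strands, and the other 4 genes held 2 each. The match is a description of letters and no evidence of binding.

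After filtering, the libraries held 1771 (normal), 1124 (ligated), 19235 (control tumour) and 18875 (treated tumour) cells at medians of 1589 to 2298 UMIs. From 1 to 92 barcodes were shared between pairs of libraries. The ribosomal RNA collector Gm42418 took 4.49 to 14.96% of UMIs and was highest in the ligated library. The 36 genes together took 0.246% of UMIs in the normal library, 0.249% in the ligated one, 0.494% in the control tumour and 0.553% in the treated tumour. Clustering was done without these genes. It gave 35 clusters, of which 31 were named by fixed markers in 14 cell classes, written with the ending -like. Acinar-like cells, the main cells of a pancreas, numbered 2 in the normal library. A further 641 normal cells formed the unnamed cluster 18, led by Ins1 and Ins2, which raised 10 of 14 acinar and 10 of 16 epithelial markers and enters no class. Each class was summed per library and scaled to counts per 1000000 UMIs of that class (CPM). Classes with at least 25 cells in a library gave 37 class-by-library units.

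All values below are CPM and, unless stated, are listed for normal and ligated pancreas first and then for the control and treated tumour. Intervals are 95% and cover counting error only. With 1 library per group, no difference has a replicate check, no test was possible and no p-value is given. Differences between libraries are log2 ratios of (CPM + 1) minus the median log2 ratio of all genes measured in the class. A gene is counted as higher or lower when this value passes 1.5-fold, and is measured at a mean of 10 CPM and 20 UMIs or more. Where genes inside the limit are summarised, the range is over 20 of the 36 taken as representatives of their roles. For each count, the share of all measured genes past the same limit is given as the background. The folds with intervals are ratios of CPM set against the same median. Some of these genes, such as Gapdh, Pgk1, Eno1, Tpi1, Ldha and Pkm, have processed pseudogenes or near-identical copies in the mouse genome, and the sources used here do not say how the counting split such reads.

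Both glucose transporters were highest in neutrophil-like cells. Slc2a1, the widespread basal glucose transporter, was at 170.3, 152 and 171 CPM there in the ligated pancreas, control tumour and treated tumour (the normal library had no such cells). Macrophage/monocyte-like cells followed, with 27.3, 82.9, 108 and 125 CPM over the 4 libraries. The lowest level was that of normal fibroblast-like cells, at 1.75 CPM. Slc2a3, a high-affinity glucose transporter, was at 704, 174 and 117 CPM in the same 3 neutrophil-like units. Outside neutrophil-like cells its level ran from 0 CPM (control tumour acinar-like cells, 0 UMIs) to 70.9 CPM (control tumour mast/basophil-like cells, 7 UMIs). T-like cells of the tumours had 52.4 and 36.5 CPM. Because capture differs between genes, the pair is better compared by the share of Slc2a3 in the UMIs of both. That share was 80.5% (72.02 to 87.4) in ligated neutrophil-like cells, 53.3% (51.5 to 55.04) in those of the control tumour and 40.5% (38.9 to 42.2) in those of the treated tumour. It was also high in T-like cells of the tumours, at 57.4% (52.9 to 61.7) and 53.1% (48.6 to 57.5), and in normal fibroblast-like cells, at 94.4% (72.7 to 99.9) of 18 UMIs. In tumour epithelial-like cells it was 4.99% (3.80 to 6.41) and 1.21% (0.580 to 2.21).

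The hexokinases trap glucose in the cell. Hk2 was highest in neutrophil-like cells of the tumours, at 170.3, 363 and 333 CPM in the 3 libraries with such cells, where Hk1 was at 101, 45.2 and 40.4 CPM. Hk2 stood at 83.9, 166, 176 and 155 CPM in fibroblast-like cells. In endothelial-like cells it was at 0, 2.93, 22.5 and 8.82 CPM, where Hk1 stood at 58.6, 99.5, 72.4 and 69.2. In epithelial-like cells Hk2 was at 2.34, 9.95, 138 and 95.5 CPM. Its share in the UMIs of Hk1, Hk2 and Hk3 was 22.8% (14.7 to 32.8) and 31.9% (21.2 to 44.2) in normal and ligated epithelial-like cells. In the tumours it was 68.8% (67.2 to 70.4) and 63.3% (61.1 to 65.4). The counting-error intervals of the 2 tumour libraries thus lay above those of the other libraries. The class was nearly all duct-type cluster 14 in normal and ligated pancreas, and mostly clusters 11 and 16 in the tumours. The part of this in the shares was not tested.

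Along the enzyme path, most steps had their highest level in tumour epithelial-like or in myeloid cells. Pgk1, which makes the first ATP of the path, reached 707 CPM in control tumour epithelial-like cells, and Pgam1, the mutase of the next step, 506 CPM there. Tpi1, the triose phosphate isomerase, reached 493 CPM and Ldha, the lactate dehydrogenase subunit, 658 CPM in the same unit. Pkm, the pyruvate kinase gene, was highest in ligated neutrophil-like cells (1099 CPM) and next in control tumour epithelial-like cells (869.8 CPM). Aldoa, the general aldolase, peaked in treated tumour macrophage/monocyte-like cells (616 CPM). Aldoc, a further aldolase, was instead a gene of duct-type epithelium, at 117 and 89.5 CPM in normal and ligated epithelial-like cells and 19.2 and 19.2 CPM in the tumours. Eno1, an enolase, had its highest level in normal epithelial-like cells (296 CPM), and Eno2, the neuronal enolase, in normal endocrine-like cells (41.2 CPM from 12 UMIs).

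**Figure D1:**
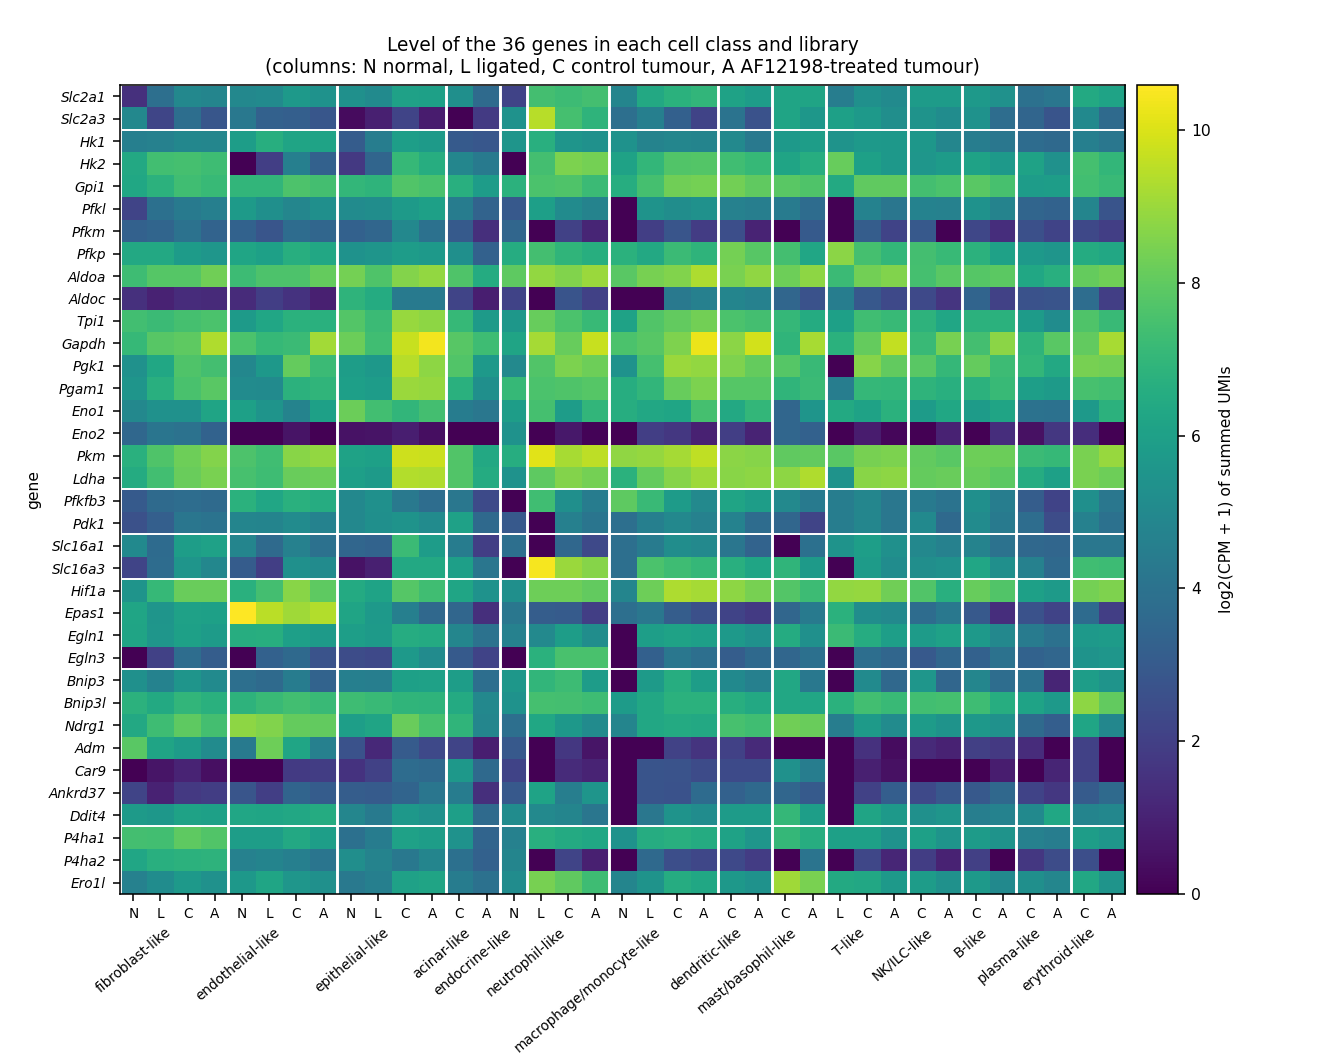
Heat map of the 36 genes, in rows by role, across the class-by-library units in columns. Colour gives log2(CPM + 1) of the summed UMIs, and since capture differs between genes it compares units along a row and not rows. Slc2a3 and Slc16a3 are highest in neutrophil-like units, Epas1 in endothelial-like units and Pgk1 and Ldha in tumour epithelial-like units.

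The lactate transporters were divided between cell classes. Slc16a3 (MCT4), known as the exporter of highly glycolytic cells, was at 1408, 516 and 411 CPM in neutrophil-like cells and at 13.6, 191, 158 and 131 CPM in macrophage/monocyte-like cells. Slc16a1 (MCT1), which carries lactate either way, was at 0, 10.5 and 4.09 CPM in neutrophil-like cells and had 0 of 182 UMIs of the pair in those of the ligated pancreas, which allows up to 2.01% (exact interval). Slc16a3 made up 98.01% (97.6 to 98.4) and 99.02% (98.7 to 99.3) of the pair in the neutrophil-like cells of the control and treated tumour. In macrophage/monocyte-like cells of the tumours it made up 81.5% (80.3 to 82.7) and 81.1% (79.99 to 82.2). Normal epithelial-like cells had 4.17% (1.15 to 10.3) and ligated ones 8.70% (1.07 to 28.04). Those of the control tumour had 35.96% (34.4 to 37.5) and those of the treated tumour 59.4% (57.1 to 61.6). In the ligated epithelial-like cells Slc16a3 stood at 0.904 CPM (2 UMIs) beside 1408 CPM in the neutrophil-like cells of that library.

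Of the oxygen-sensing genes, Hif1a, the alpha subunit of HIF-1, had UMIs in all 37 units and was highest in macrophage/monocyte-like cells of the tumours, at 632 and 579 CPM. Epas1, which encodes HIF-2α and is known as the endothelial form, was at 1542, 719.7, 547 and 663 CPM in endothelial-like cells. In epithelial-like, fibroblast-like and myeloid cells it stayed at 73.4 CPM or lower. The share of Hif1a in the UMIs of both genes was 6.39% (5.01 to 8.001) in normal endothelial-like cells, 19.1% (14.8 to 23.95) in ligated, 43.4% (41.2 to 45.6) in control tumour and 27.04% (25.1 to 29.1) in treated tumour ones. In fibroblast-like cells it was 37.3% (25.8 to 49.99), 75.4% (70.5 to 79.8), 81.6% (80.5 to 82.6) and 81.6% (79.8 to 83.2). In macrophage/monocyte-like cells of the tumours it was 98.8 and 99.1%. The endothelial-like class differed in make-up between libraries. Lymphatic cluster 29 (led by Ccl21a and Mmrn1) held 3 of its 265 normal and 38 of its 130 ligated cells. In the control and treated tumour it held 101 of 502 and 34 of 345. The part of this in the endothelial-like shares was not tested. Egln3, a HIF hydroxylase that HIF itself induces, was at 108, 189 and 185 CPM in neutrophil-like cells and at 4.57, 4.07, 51.4 and 33.7 CPM in epithelial-like cells. Egln1, the main HIF hydroxylase, varied less across the stromal classes, from 45.9 to 99.5 CPM.

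The hypoxia-induced genes had no common site of expression. Adm, the vasodilator adrenomedullin, was at 19.5, 307, 74.4 and 23.7 CPM in endothelial-like cells and at 234, 70.98, 54.4 and 33.9 CPM in fibroblast-like cells. Ndrg1 was highest in normal endothelial-like cells, with 448, 386, 269 and 265 CPM over the 4 libraries. Bnip3, a mitophagy receptor, peaked in control tumour neutrophil-like cells (153 CPM). Bnip3l, which clears mitochondria from maturing red cells, peaked in erythroid-like cells of the tumours (438 and 267 CPM). P4ha1 and P4ha2, the catalytic subunits of collagen prolyl 4-hydroxylase, were highest in tumour fibroblast-like cells, at 249.7 CPM in the control tumour and 114 CPM in the treated tumour. Ero1l, an oxidase of the endoplasmic reticulum, was at 341, 256 and 156 CPM in neutrophil-like cells and highest in mast/basophil-like cells of the control tumour (537 CPM).

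Car9, the cell-surface carbonic anhydrase IX widely used as a marker of hypoxia, was low. In epithelial-like cells it was at 1.89, 3.17, 12.2 and 11.5 CPM and its highest unit was the acinar-like cells of the control tumour (48.7 CPM from 14 UMIs). Within the epithelial-like class the duct-type cluster held 44.2 CPM in the control tumour (32 UMIs in 84 cells), above the 7.09 and 11.3 CPM of the clusters found only in or almost only in the tumours. Ankrd37, a small HIF-induced gene, was at 69.6, 21.98 and 45.6 CPM in neutrophil-like cells and at 7.79, 7.23, 9.76 and 16.7 in epithelial-like cells. Ddit4, an inhibitor of mTOR signalling, lay between 17.1 and 91.5 CPM in the endothelial-like, fibroblast-like, epithelial-like and neutrophil-like units.

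**Figure D2:**
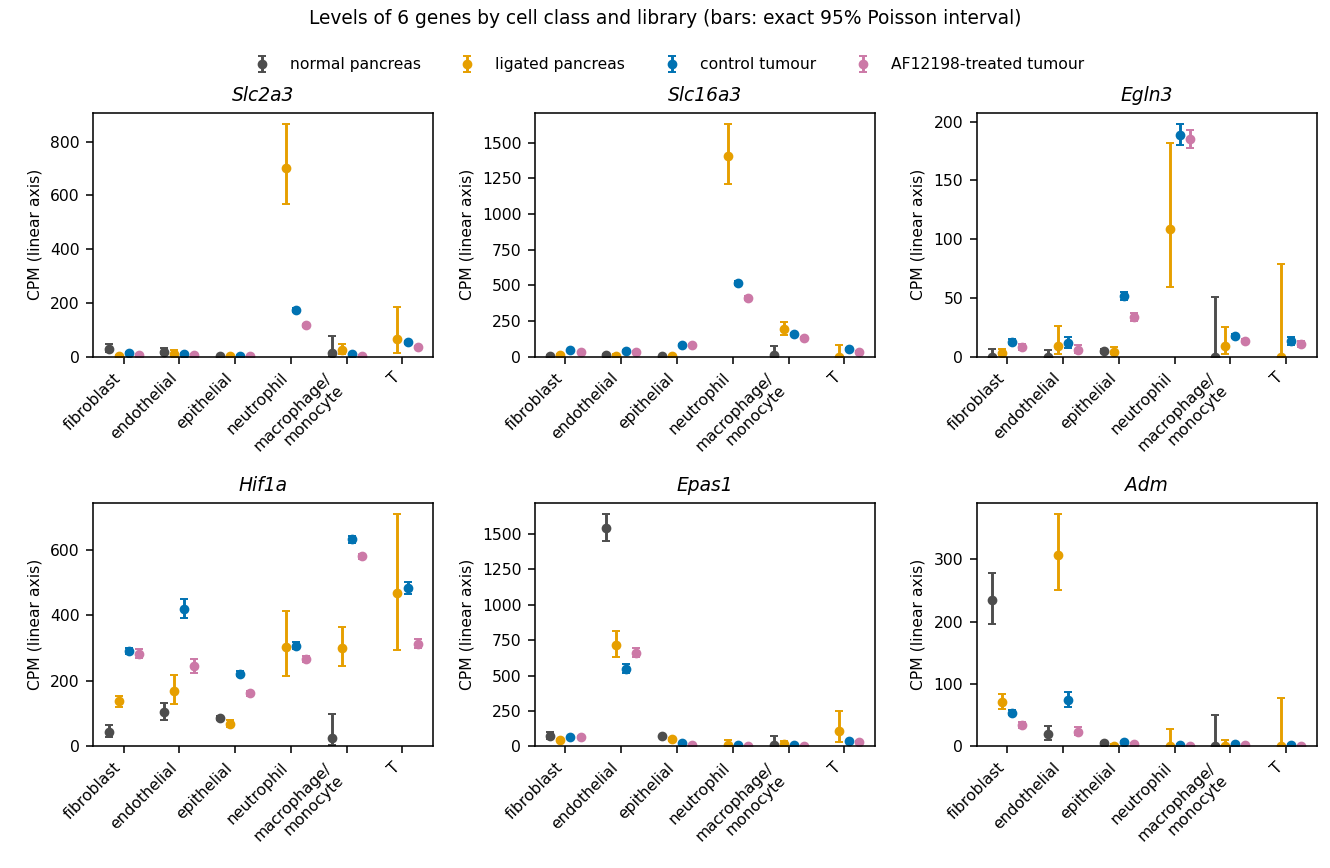
Levels of Slc2a3, Slc16a3, Egln3, Hif1a, Epas1 and Adm by class and library, in CPM on linear axes that start at 0, with exact 95% Poisson intervals for counting error as bars. The first 3 are highest in neutrophil-like cells, Hif1a is highest in tumour macrophage/monocyte-like cells, Epas1 in endothelial-like cells, and Adm in endothelial-like cells of the ligated pancreas and fibroblast-like cells of the normal pancreas.

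Ligated and normal pancreas were compared to show what pancreatitis without tumour cells goes with. Fibroblast-like cells, nearly all of them in cluster 8 (led by Dcn and Dpt) in both libraries, stood higher for Hif1a and for enzymes of the lower glycolytic path. Epithelial-like cells, the duct-type cluster 14 in both, stood lower for several of these enzymes. Endothelial-like cells, which included more lymphatic cells in the ligated library, stood lower for Epas1, by less within the blood endothelial cluster alone.

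In fibroblast-like cells (90 normal and 278 ligated), 9 of the 26 genes measured were higher and 5 lower, beside 18.2% and 17% of all genes. Hif1a was at 43.7 CPM in normal and 137 CPM in ligated cells, 3.23-fold higher (2.14 to 5.08). Pgam1 was at 45.5 and 101 CPM, 2.28-fold higher (1.51 to 3.58). Hk2 was at 83.9 and 166 CPM (2.04-fold higher, 1.503 to 2.83), and Pkm at 103 and 205 CPM (2.04-fold higher, 1.55 to 2.73). Pgk1 was at 40.2 and 78.8 CPM, with a log2 ratio of 0.99. The next were Ndrg1 (0.96), Ldha (0.92), Gapdh (0.79) and Eno2 (0.62). Of these 9, all but Eno2 had an interval clear of 1, as did 10.5% of all genes on the higher and 10.6% on the lower side. Slc2a3 stood lowest, with 17 UMIs (29.7 CPM) in the normal and 7 UMIs (3.65 CPM) in the ligated library. Adm was at 234 and 70.98 CPM, 3.21-fold lower (2.51 to 4.10). Slc16a1 (-1.28), Epas1 (-0.66) and Egln1 (-0.59) were lower too. The role representatives inside 1.5-fold ran from Bnip3 at -0.56 to Ero1l at 0.54. At Leiden resolution 2.0, which redraws the class, only 2 genes were higher, and Gapdh and Pgk1 turned to log2 ratios of -0.34 and -0.39.

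In epithelial-like cells (606 and 333), 1 of 26 genes was higher and 5 were lower, beside 8.15% and 11.7% of all genes. Hk1 was higher, at 7.57 and 21.3 CPM (2.70-fold higher, 1.82 to 3.97). Of the 5 lower genes 4 were mid-path enzymes. Gapdh was at 299 and 162 CPM (1.92-fold lower, 1.72 to 2.15) and Eno1 at 296 and 165 CPM (1.87-fold lower, 1.67 to 2.09). Aldoa was at 335 and 201 CPM (1.73-fold lower, 1.57 to 1.92), while Tpi1 (-0.60) and Ddit4 (-0.60) lay just past the limit. Inside the limit the representatives ran from Epas1 at -0.53 to P4ha1 at 0.47. The median UMI count per epithelial-like cell was 10734 in the normal and 4013 in the ligated library, and the part of that gap in these values was not tested.

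In endothelial-like cells (265 and 130), 3 of 26 genes were higher and 6 lower, beside 22.4% and 22.9%, so the lower count lay near the background and the higher one below it. Only 1 of the higher and 3 of the lower genes had an interval clear of 1, beside 14.1% and 13.4% of all genes. Epas1 was at 1542 and 719.7 CPM (2.39-fold lower, 2.08 to 2.76), and at 1567 and 1138 CPM in the blood endothelial cluster 15 alone. Slc16a1 (-1.30), Eno1 (-0.70), Pfkfb3 (-0.66), Pfkl (-0.65) and Gapdh (-0.63) were lower as well. Pgk1 (0.62) and Hk1 (0.60) were just above the limit. Adm had the largest ratio, at 19.5 and 307 CPM. That ratio moved with lymphatic cells: cluster 29, led by Ccl21a and Mmrn1, held 3 of the normal and 38 of the ligated cells and stood at 682 CPM for Adm in the ligated library. Within cluster 15 alone Adm was at 10.7 and 10.5 CPM, with a log2 ratio of -0.16. That cluster held 652304 normal and 190756 ligated UMIs, so its Adm values rest on fewer than the 20 UMIs asked of a measured gene. Representatives within 1.5-fold ran from Pkm at -0.47 to Hif1a at 0.53.

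Macrophage/monocyte-like cells numbered 26 in the normal library, and 9 of 19 genes were higher and 2 lower after ligation, beside 28.1% and 24.2% of all genes. Hif1a was at 27.3 and 300.03 CPM, resting on 2 normal UMIs. Slc16a3 was at 13.6 and 191 CPM, with 1 normal UMI. Only 4 of the higher and 1 of the lower genes had an interval clear of 1, beside 6.94% and 11.4% of all genes. Pfkfb3, the activator of phosphofructokinase, was the lower one, at 246 and 143 CPM (2.15-fold lower, 1.18 to 3.75).

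**Figure D3:**
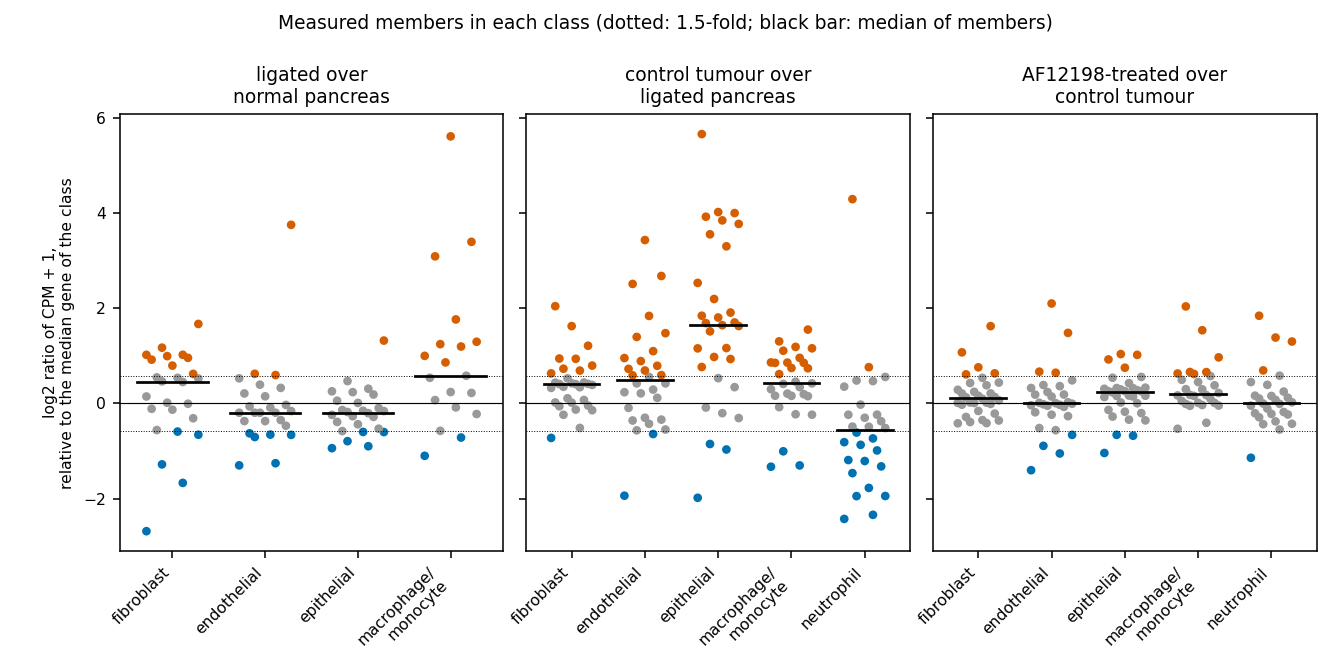
Log2 ratios relative to all measured genes for the members measured in each class, for ligated over normal, control tumour over ligated and treated over control tumour. Each point is 1 gene, black bars are medians over the genes measured and dotted lines mark 1.5-fold. Values of the control tumour over the ligated pancreas lie highest in epithelial-like cells, where the median is 1.64, and lowest in neutrophil-like cells, where it is -0.56.

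The next comparison was of the control tumour with the ligated pancreas, since the KPC cells had grown in such a pancreas. It uses the same ligated library as above. The clearest difference was in epithelial-like cells, where enzymes from hexokinase to lactate dehydrogenase and both lactate transporters stood several-fold higher. Endothelial-like and macrophage/monocyte-like cells had smaller differences of the same direction, among them Pgk1, Pgam1 and Hif1a. Neutrophil-like cells went the other way for many of these genes.

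In epithelial-like cells (333 ligated and 1266 tumour), 23 of 31 genes were higher and 3 lower, beside 30.1% and 30.4% of all genes. All of these members had intervals clear of 1, beside 30% and 30.4%. The median log2 ratio of the 31 was 1.64, against 0 for all genes by construction. Slc16a3 was at 0.904 and 83.7 CPM, a ratio that rests on 2 UMIs in the ligated library. Slc16a1 was at 9.496 and 149 CPM (17.8-fold higher, 11.6 to 28.8). Pgk1 was at 49.3 and 707 CPM (16.3-fold higher, 13.5 to 19.8) and Pkm at 64.2 and 869.8 CPM (15.4-fold higher, 13.03 to 18.3). Hk2, at 9.95 and 138 CPM, was 15.7-fold higher (10.3 to 25.1). Ldha, at 53.8 and 658 CPM, was 13.9-fold higher (11.6 to 16.8). Egln3 (3.55), Pgam1 (3.30), Gapdh (2.53), Ndrg1 (2.19), Hif1a (1.84), P4ha1 (1.80), Ero1l (1.70), Bnip3 (1.69), Ddit4 (1.51) and Slc2a1 (1.16) were higher as well. The 3 lower genes were Aldoc (89.5 and 19.2 CPM), Epas1 (51.1 and 22.5 CPM) and Pfkfb3 (38.9 and 18.5 CPM). The 1 representative inside the limit was Pdk1 (0.34).

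These cells were of different kinds in the 2 libraries. The duct-type cluster 14, led by Onecut1 and Dcdc2a, held 328 of the 333 ligated cells but 84 of the 1266 tumour cells. Most tumour cells lay in cluster 11 (632 cells, led by Tff1) and cluster 16 (550 cells, led by Onecut2), which held 2 and 3 ligated cells. Cluster 16 had a median of 20281 UMIs per cell in the control tumour and cluster 11 one of 1625, so the summed class follows mostly cluster 16. Within cluster 14 alone, 12 of 32 genes were higher and 6 lower in the tumour, beside 17.8% and 17.5% of all genes, and 10 and 2 of these had intervals clear of 1, beside 14.6% and 11.6%. Pgk1 was at 48.99 CPM in ligated cluster 14 and at 158, 1226 and 662 CPM in control tumour clusters 14, 11 and 16. Ldha was at 51.7 CPM and then 185, 813 and 661 CPM in the same order. Pkm was at 62.3, 112, 953 and 898 CPM. Duct-type cells of the tumour thus stood above those of the ligated pancreas for these enzymes, and below both other tumour clusters. Hk2 and Slc16a1 were highest in cluster 16, at 157 and 167 CPM, beside 34.96 and 62.3 CPM in cluster 11. Aldoc went with the kind of cell: it was at 89.7 and 116 CPM in cluster 14 of the ligated pancreas and the tumour and at 13.2 and 15.003 CPM in clusters 11 and 16. Ndrg1 (70.97 and 67.7 CPM in cluster 14) and Ero1l (22.4 and 11.1 CPM) were not higher within the duct-type cells, with log2 ratios of -0.06 and -0.95. The tumour value of Ero1l rests on few UMIs.

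**Figure D4:**
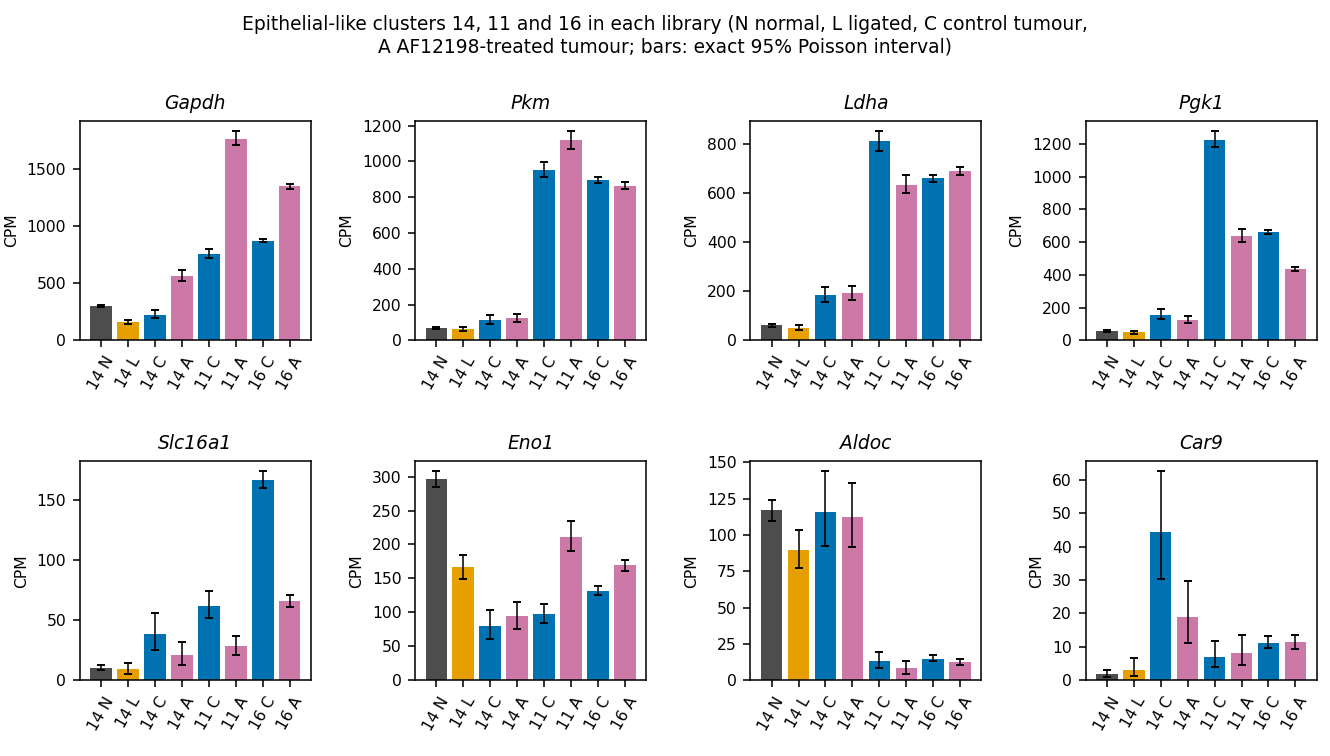
Levels of Gapdh, Pkm, Ldha, Pgk1, Slc16a1, Eno1, Aldoc and Car9 in the 3 epithelial-like clusters by library, as bars of CPM with exact 95% Poisson intervals. Cluster 14 is present in all 4 libraries and clusters 11 and 16 in the tumours. Pgk1, for example, is at 57.8, 48.99, 158 and 125 CPM in cluster 14 and at 1226 and 639 CPM in cluster 11.

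In endothelial-like cells (130 and 502), 14 of 30 genes were higher and 2 lower, beside 27.3% and 25.1% of all genes. Of these, 10 and 1 had intervals clear of 1, beside 18.1% and 16.5%. Pgk1 was at 49.7 and 269.6 CPM (5.79-fold higher, 3.58 to 10.01). Hif1a was at 169.7 and 419.9 CPM (2.64-fold higher, 2.02 to 3.51), Pkm at 161 and 421 CPM (2.79-fold higher, 2.13 to 3.74) and Pgam1 at 32.2 and 110.1 CPM (3.65-fold higher, 2.003 to 7.42). Slc16a3 (2.93 and 38.7 CPM) and Hk2 (2.93 and 22.5 CPM) were higher from 1 ligated UMI each. Eno1 (-0.64) was lower, with an interval that held 1. Adm was lower in the whole class, at 307 and 74.4 CPM, but within blood endothelial cluster 15 it was at 10.5 and 32.9 CPM, a log2 ratio of 1.54, and within lymphatic cluster 29 at 682 and 259.8 CPM. The ligated value of cluster 15 rests on few Adm UMIs, of 190756 UMIs in all. Epas1, at 719.7 and 547 CPM in the class and 1138 and 634 CPM in cluster 15, gave class and cluster log2 ratios of -0.30 and -0.86. Inside the limit the representatives ran from Ero1l at -0.55 to Pfkfb3 at 0.56. Cell-cycle genes moved with this difference: 8 of 9 measured were higher in the tumour in this class, and 9 of 10 in epithelial-like cells, and their part in it was not tested.

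In fibroblast-like cells (278 and 1355), 9 of 31 genes were higher and 1 lower, beside 13.7% and 14.6%. All of these had intervals clear of 1, beside 13.3% and 14.3% of all genes. Slc16a1 was at 12.004 and 57.9 CPM (4.39-fold higher, 2.90 to 6.96) and Slc16a3 at 12.5 and 44.8 CPM (3.26-fold higher, 2.17 to 5.12). Pgk1 was at 78.8 and 202 CPM (2.34-fold higher, 1.98 to 2.77) and Hif1a at 137 and 291 CPM (1.93-fold higher, 1.70 to 2.19). Slc2a1 (0.94), Pdk1 (0.79), Pgam1 (0.73), Bnip3 (0.69) and Ldha (0.63) completed the 9. Pfkp, the platelet-type phosphofructokinase, was lower (-0.72). Representatives within 1.5-fold ran from Adm at -0.51 to Ndrg1 at 0.53. Of the tumour cells 298 lay in cluster 22 (led by Tnc and Col8a1), which held 3 ligated cells and stood above cluster 8 for Slc16a3 (96.3 and 27.7 CPM), Pgk1 (326 and 161), P4ha1 (362 and 213) and P4ha2 (149.9 and 98.8). Cluster 8 alone gave 5 higher and 1 lower of 31, beside 12.9% and 14% of all genes, and resolution 2.0 gave 19 higher and 2 lower. Neutrophil markers summed to 176 CPM in ligated and 1028 CPM in tumour fibroblast-like cells, and with 10% of the pooled library profile subtracted the log2 ratio of Slc16a3 was 1.79.

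In macrophage/monocyte-like cells (179 and 4906), 13 of 29 genes were higher and 3 lower, beside 20.9% and 21.1%. Of these, 11 and 2 had intervals clear of 1, beside 13% and 13.3% of all genes. Pgk1 was at 177 and 508 CPM (2.94-fold higher, 2.29 to 3.84) and Hif1a at 300.03 and 632 CPM (2.16-fold higher, 1.78 to 2.64). Ddit4 (1.30), Pgam1 (1.19), Ero1l (1.16), Gapdh (0.74), Hk2 (0.74) and Ldha (0.62) were higher too. Pfkfb3 was lower, at 143 and 54.9 CPM (2.54-fold lower, 1.87 to 3.37), as were Slc2a3 (22.9 and 8.45 CPM) and Epas1 (17.1 and 7.82 CPM). The representatives inside the limit ran from Slc16a3 at -0.24 to Pdk1 at 0.42. Most ligated cells lay in cluster 10 (129, led by Ifitm6), and most tumour cells in cluster 4 (1700, led by Ccl8) and cluster 5 (2140, led by Nrg1 and Ccr2). Within cluster 10 alone, with 94 tumour cells, 9 of 18 genes were higher and 3 lower, beside 28.3% and 27.8% of all genes. There Pgk1 was at 46.7 and 339.97 CPM and Hif1a at 303 and 559.9 CPM, whereas Hk2 (171 and 128 CPM) and Ero1l (62.2 and 23.998 CPM) had negative log2 ratios of -0.61 and -1.53. The Slc2a3 ratio turned positive in 3 other clusterings (with doublets kept 1.36, at resolution 0.5 0.96 and with these genes kept among the variable genes 0.94).

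In neutrophil-like cells (76 and 6010), 2 of 28 genes were higher and 14 lower, beside 29.9% and 30.7%. Of these, 1 and 12 had intervals clear of 1, beside 8% and 14.6% of all genes. Slc16a3 was at 1408 and 516 CPM (3.42-fold lower, 2.94 to 3.97) and Slc2a3 at 704 and 174 CPM (5.08-fold lower, 4.07 to 6.28). Pfkfb3 was at 163 and 37.2 CPM (5.48-fold lower, 3.35 to 8.50), Eno1 at 178 and 57.3 CPM (3.89-fold lower, 2.45 to 5.90) and Pkm at 1099 and 595 CPM (2.31-fold lower, 1.94 to 2.73). Ankrd37 (-1.95), Hk1 (-1.46), Gapdh (-1.32), Ndrg1 (-0.99) and Ero1l (-0.73) were lower as well. Hk2 was higher, at 170.3 and 363 CPM (1.70-fold higher, 1.12 to 2.72). Pdk1, the kinase that shuts pyruvate dehydrogenase, had 0 UMIs in the ligated library and 23.5 CPM in the tumour. The floor of 3 counts in the ligated library is 23.2 CPM, so no fold is given. Inside the limit the representatives ran from P4ha1 at -0.52 to Pgk1 at 0.48. The ligated cells lay mostly in cluster 3 (52 of 76, led by Cxcl3), which held 215 of the 6010 tumour cells, while 4729 tumour cells lay in cluster 0 (led by Il1r2). Within cluster 3, Slc2a3 was at 832 and 467 CPM and Slc16a3 at 1529 and 1259.6 CPM, and 1 of 23 genes was higher and 9 lower, beside 24.6% and 23.7%. In tumour cluster 0, Slc16a3 was at 513 CPM and Slc2a3 at 161 CPM.

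The treated tumour was set against the control tumour, the same control library as above, to show what treatment with AF12198 goes with. Gapdh, Eno1 and Aldoa stood higher with AF12198 in nearly every class, while Bnip3 was past 1.5-fold lower in 6 of the 11 classes where it was measured. The share of all genes that did so in as many classes is not given here. The genes of the list did not move as a group: their median log2 ratio lay between 0.00 (endothelial-like) and 0.23 (epithelial-like) in the 5 main classes. Counts of higher genes lay near the all-gene shares in fibroblast-like, epithelial-like, endothelial-like and neutrophil-like cells. In macrophage/monocyte-like cells the count lay above that share. All-gene medians of the plain ratios, subtracted here, were -0.19 to -0.41 in 12 of the 13 classes compared and -0.98 in acinar-like cells.

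In fibroblast-like cells (1355 control and 525 treated), 5 of 32 genes were higher and 0 lower, beside 14.4% and 6.59% of all genes. Gapdh was at 246 and 639 CPM (3.09-fold higher, 2.95 to 3.24), Eno1 at 40.4 and 72.3 CPM (2.13-fold higher, 1.87 to 2.42) and Aldoa at 222 and 316 CPM (1.69-fold higher, 1.60 to 1.80). Pkm (0.63) and Pgam1 (0.61) were the other two. Representatives within 1.5-fold ran from Adm at -0.42 to Ldha at 0.54. Without centring, 2 genes were higher and 5 lower.

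In epithelial-like cells (1266 and 1146), 4 of 33 genes were higher and 3 lower, beside 13.8% and 7.18%. Gapdh was at 829 and 1348 CPM (2.03-fold higher, 1.98 to 2.08). Ankrd37 (1.04), P4ha2 (0.92) and Eno1 (0.75) were higher as well. Slc16a1 was lower, at 149 and 57.4 CPM (2.08-fold lower, 1.91 to 2.26), and stood at 62.3 and 28.5 CPM in cluster 11, 38.7 and 20.95 in cluster 14 and 167 and 65.99 in cluster 16, lower with AF12198 in each. Slc16a3 was level at 83.7 and 83.9 CPM. Pfkm (-0.68) and Epas1 (-0.66) were lower. Pgk1 stayed inside the limit in the class, at 707 and 442 CPM (-0.36), with 1226 and 639 CPM in cluster 11. The representatives inside the limit ran from Pgk1 at -0.36 to Ero1l at 0.43. The clusters were present in like numbers, with 632 and 605 cells in cluster 11, 550 and 461 in cluster 16 and 84 and 80 in cluster 14. Without centring, 6 genes were lower.

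In endothelial-like cells (502 and 345), 4 of 30 genes were higher and 4 lower, beside 16.1% and 13.5%. Gapdh was at 149 and 556 CPM (4.31-fold higher, 3.79 to 4.90) and Eno1 at 25.9 and 64.1 CPM (2.86-fold higher, 2.07 to 3.999), with Aldoa (0.67) and Pfkl (0.64) also higher. Adm was at 74.4 and 23.7 CPM (2.72-fold lower, 1.97 to 3.81). It was lower within both kinds of endothelium, at 32.9 and 10.7 CPM in cluster 15 and 259.8 and 84.9 CPM in lymphatic cluster 29, which held 101 control and 34 treated cells. Hk2 was at 22.5 and 8.82 CPM, Bnip3 at 21.04 and 9.29 CPM and Pgk1 at 269.6 and 147 CPM (1.58-fold lower, 1.38 to 1.82), all lower. Hif1a, at 419.9 and 246 CPM, and Epas1, at 547 and 663 CPM, gave log2 ratios of -0.56 and 0.49. Inside the limit the representatives ran from Hif1a at -0.56 to Epas1 at 0.49.

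In macrophage/monocyte-like cells (4906 and 4435), 7 of 28 genes were higher and 0 lower, beside 14% and 7.27%. Gapdh was at 368 and 1244 CPM (4.11-fold higher, 4.01 to 4.22), Eno1 at 73.98 and 178 CPM (2.92-fold higher, 2.76 to 3.10) and Aldoa at 383 and 616 CPM (1.96-fold higher, 1.91 to 2.01). Pkm (0.66), Pgam1 (0.66), Aldoc (0.63) and Ldha (0.62) lay near the limit, and without centring only 3 genes were higher and 2 lower. Hif1a was at 632 and 579 CPM, and the representatives inside the limit ran from Pfkfb3 at -0.53 to Slc2a1 at 0.50. The make-up of the class differed, with 805 control and 2090 treated cells in cluster 2 (led by Arg1 and Mmp12), 2140 and 99 in cluster 5 and 94 and 1150 in cluster 10. Gapdh was higher within each of these clusters, at 579 and 1491 CPM in cluster 2, 269.7 and 899.5 in cluster 5 and 248 and 949 in cluster 10. Its levels in clusters 4 and 26 of the class are not given here. The part of the make-up in the class value was not tested. Hif1a was at 866 and 683 CPM in cluster 2 and 501 and 404 CPM in cluster 4.

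In neutrophil-like cells (6010 and 7441), 4 of 28 genes were higher and 1 lower, beside 14.7% and 11.3%. Gapdh was at 283 and 837 CPM (3.59-fold higher, 3.44 to 3.75), Eno1 at 57.3 and 124 CPM (2.63-fold higher, 2.39 to 2.91) and Ankrd37 at 21.98 and 45.6 CPM (2.52-fold higher, 2.15 to 2.97), with Aldoa next (0.69). Bnip3 was lower, at 153 and 56.5 CPM (2.23-fold lower, 2.03 to 2.45), and stood at 164 and 71.4 CPM in cluster 0, 155 and 61.8 in cluster 1 and 134 and 53.5 in cluster 3. Slc2a3, at 174 and 117 CPM, and Slc16a3, at 516 and 411 CPM, gave log2 ratios of -0.29 and -0.05 in the class. In cluster 3 Slc2a3 stood at 467 and 199.6 CPM and Slc16a3 at 1259.6 and 777 CPM. These are plain levels, and the all-gene median log2 ratio in cluster 3 was -0.26. Representatives within 1.5-fold ran from Pfkfb3 at -0.55 to Pkm at 0.58. Control cells lay mostly in cluster 0 (4729 cells) and treated cells in clusters 1 and 3 (3415 and 2594 cells).

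Across the 13 classes that could be compared between the tumours, Gapdh had a log2 ratio above 0 in 13 and passed 1.5-fold in 12, from 0.42 in acinar-like to 2.46 in mast/basophil-like cells. Eno1 was above 0 in 13 and past the limit in 12, and Aldoa above 0 in 12 and past the limit in 10. Bnip3 was below 0 in 10 of the 11 classes where it was measured and past the limit in 6, down to -1.68 in NK/ILC-like cells. Without centring Gapdh was above 0 in 12, Eno1 in 11 and Aldoa in 12. Pgk1, the enzyme that follows Gapdh in the path, was below 0 in 10 of 13 classes and past the limit in 2, and below 0 in 13 of 13 without centring. Pdk1 was below 0 in 9 of 11 and Slc16a3 in 8 of 13. In single classes, 13.8 to 29% of all measured genes were past 1.5-fold higher and 6.59 to 25.4% lower. A gene higher in every class was not rare: of 3044 genes measured in all 13 classes, 205 (6.73%) were past 1.5-fold in each, while 4 (0.131%) were lower in each. Gapdh, Eno1, Aldoa and Bnip3 did not meet that rule. The share of all genes past the limit in as many classes as each of them is not given here. Of 86 ribosomal protein genes among the 3044, 53 were higher in all 13. The ribosomal share of UMIs was 9.22 and 16.3% in control and treated fibroblast-like cells, 15.4 and 21.8% in epithelial-like, 7.63 and 15.1% in endothelial-like, 8.88 and 14.7% in macrophage/monocyte-like and 4.41 and 6.06% in neutrophil-like cells. Dissociation-responsive genes summed to 44403 CPM in control and 16669 CPM in treated neutrophil-like cells and were lower in the treated library in the other 4 main classes too. Acinar markers were higher in it, at 260.5 and 1941 CPM in neutrophil-like cells. The part of these in the Gapdh, Eno1 and Aldoa values was not tested, and treatment and library cannot be told apart.

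**Figure D5:**
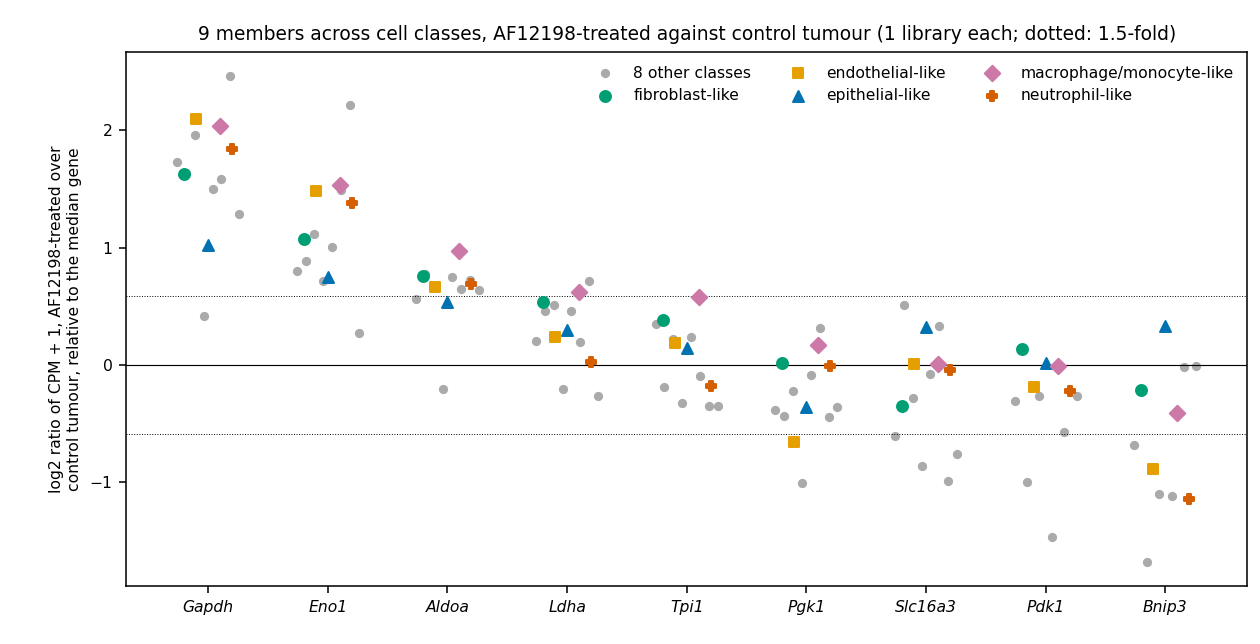
Log2 ratios of the treated over the control tumour, relative to all genes, for Gapdh, Eno1, Aldoa, Ldha, Tpi1, Pgk1, Slc16a3, Pdk1 and Bnip3 in the classes where each was measured (1 point per class, the 5 main classes in colour and the others in grey, dotted lines at 1.5-fold). Gapdh and Eno1 lie above 0 in all 13 classes (in 12 and 11 without centring), Bnip3 below 0 in 10 of 11, and Pgk1 below 0 in 10 of 13.

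Other genes of these pathways, from lists set beside the 36, were counted in the same way. Of the other known hypoxia-induced genes, 9 of 18 measured were higher and 3 lower in ligated over normal fibroblast-like cells, beside 18.2% and 17% of all genes. The lysyl hydroxylase Plod2 was at 73.4 and 301 CPM, Hilpda, a lipid droplet protein, at 8.74 and 38.6 and the cytokine Mif at 48.9 and 174, all higher. Selenbp1 (-1.93), Stc2 (-1.76) and Mxi1 (-0.84) were lower. In control tumour over ligated epithelial-like cells 10 of 20 were higher and 3 lower, beside 30.1% and 30.4%. Hmox1, heme oxygenase 1, was at 4.97 and 71.7 CPM and Loxl2, a lysyl oxidase, at 2.71 and 49.5. Vegfa, the vascular growth factor, was lower there, at 373 and 217 CPM (-0.59), beside Selenbp1 (-2.17) and Stc1 (-1.16). In neutrophil-like cells Vegfa was at 193, 763 and 362 CPM in the ligated, control tumour and treated tumour libraries, higher and then lower past the limit (1.65 and -0.79). In endothelial-like cells of the control tumour 10 of 19 were higher and 2 lower than in the ligated pancreas, beside 27.3% and 25.1%, with Hmox1 (2.66), Stc1 (2.36) and Cxcr4 (2.15) first. In macrophage/monocyte-like cells 7 of 18 went each way, beside 20.9% and 21.1%.

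Enzymes of the pentose phosphate pathway, a branch from glucose 6-phosphate, were higher in the control tumour for 4 of 7 measured in epithelial-like cells and 4 of 6 in endothelial-like cells, beside 30.1% and 27.3% of all genes, with none lower. The transketolase Tkt was at 157 and 393 CPM in epithelial-like and 43.9 and 155 CPM in endothelial-like cells. Mpc2, a subunit of the mitochondrial pyruvate carrier, was lower in tumour epithelial-like cells, at 236 and 42.9 CPM (-2.25), as was the kinase Pdk2 (-2.20). In ligated over normal endothelial-like cells 1 of 6 genes of mitochondrial pyruvate entry was higher and 4 were lower, beside 22.4% and 22.9% of all genes, led by Mpc1 (-1.70). Slc2a2, a low-affinity glucose transporter best known from beta cells, was at 33.5 and 0.546 CPM in ligated and control tumour epithelial-like cells, and the muscle bisphosphatase Fbp2 at 0 and 32.1 CPM.

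Over the 37 class-by-library units, log2(CPM + 1) of Pgk1 ran most closely with that of Pgam1 (Pearson r 0.81) and Ldha (0.81), and that of Slc16a3 with Egln3 (0.81) and Pkm (0.80). Adm ran with P4ha2 (0.76) and Epas1 with Adm (0.66). The median r was 0.32 among the glycolytic enzymes and 0.33 among the hypoxia-induced genes, and r was -0.18 between the lactate transporters. Between roles the median r reached like values, such as 0.28 for glucose transporters with glycolytic enzymes. It ran from 0.02 (flux switches with P4ha1, P4ha2 and Ero1l) to 0.29 (lactate transporters with the same genes). A median over pairs of other genes is not given here. The median r of Epas1 with the other 35 genes was -0.09 and that of Slc2a1 0.41. Units of 1 library share its depth and free RNA and units of 1 class its cells, so these values describe the 37 units and carry no test.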

How the data were processed

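Each of the 4 libraries (10x Genomics 3', v3, per the labels' protocols) came with a deposited matrix whose values are raw UMI counts for every gene in every barcode. They were made with Cell Ranger 6.0.0 on mm10 per the submitters' processing notes, and the annotation release is not given in the sources used here. Cells were kept at 250 genes, 500 UMIs and at most 20% mitochondrial UMIs. Doublets called by Scrublet per library were removed, and in the treated library, where it called 1 cell, the 5% with the highest scores. Cells of all libraries were clustered together (Scanpy 1.11.5, 2000 variable genes without the 36 genes and their pathway lists, 40 components, 20 neighbours, Leiden 1.0). A cluster was named when 3 or more markers of a class were raised 2-fold in 10% of its cells, thresholds set after the data had been seen. It stayed unnamed when a second class had 5 or more markers and 40% of its list raised at 0.75 or more of the first list's share, when its top 10 genes held more markers of another class, or when its depth was low and none of those genes was a marker of its own class. This left 4 clusters unnamed. UMIs were summed per class and library, with exact Poisson intervals for CPM, exact conditional intervals for ratios and exact binomial ones for shares. Ratios used a pseudocount of 1 CPM and were tested on simulated data. A level at 0 UMIs has a floor of 3 counts. The 36 genes were not picked by their values, but they, the lists beside them and the comparisons were chosen with earlier results of these data known. Each comparison names up to 5 genes past 1.5-fold each way and a set of role representatives, of which those inside the limit are given by their range. Alternatives covered cell filters, doublets, clustering, centring, pseudocount, totals, free RNA and minimum levels, and, chosen after seeing the data, single clusters.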

Additional observations from a re-analysis of the deposited data

Results flagged for a closer look

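Several genes passed 1.5-fold in opposite directions in 2 cell classes of the same comparison, each class 1 summed value per library. The differences between classes were not tested, since each group is 1 library. In the ligated over the normal pancreas, Gapdh had a log2 ratio of 0.79 in fibroblast-like and -0.94 in epithelial-like cells, and Adm one of 3.75 in endothelial-like and -1.67 in fibroblast-like cells. The endothelial value of Adm was -0.16 in blood endothelial cluster 15 alone, from few Adm UMIs. The fibroblast value of Gapdh turned negative at Leiden resolution 2.0.

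In the control tumour over the ligated pancreas, epithelial-like cells stood higher and neutrophil-like cells lower for Hk1 (1.64 and -1.46), Aldoa (1.16 and -0.61), Tpi1 (1.91 and -0.87), Gapdh (2.53 and -1.32) and Pkm (3.92 and -1.21). The same held for Slc16a3 (5.66 and -1.77) and Ero1l (1.70 and -0.73). The epithelial-like cells lay mostly in duct-type cluster 14 in the ligated library and in clusters 11 and 16 in the tumour. Within cluster 14 alone the Ero1l ratio was negative, but it rests on few Ero1l UMIs in the tumour cells of that cluster, which held 723609 UMIs in all. Pfkp was higher in macrophage/monocyte-like (0.86) and lower in neutrophil-like cells (-0.81). Beside these values, the ligated neutrophil-like cells number 76 and the all-gene median subtracted from their ratios is 0.33, against -0.18 in epithelial-like cells. The part of either in these values was not tested.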

How the results depend on the processing

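Of 286 recomputed counts of genes higher or lower in a class and comparison, 238 stayed within 1.5 times the reported count and 48 did not. Of 2761 recomputed values of single genes, 2492 stayed, 254 moved and 15 changed sign. In what follows "higher" and "lower" are counts of the 36 genes. At Leiden 2.0 fibroblast-like cells had 2 higher in ligated over normal, 19 higher and 2 lower in control tumour over ligated, and 1 lower in treated over control, as had macrophage/monocyte-like cells (1 lower). With genes measured at 30 CPM and 60 UMIs, ligated over normal gave 3 lower (fibroblast-like), 0 higher and 3 lower (epithelial-like) and 1 lower (endothelial-like). Control tumour over ligated gave 5 higher and 2 lower (fibroblast-like), 8 higher and 4 lower (endothelial-like), 1 lower (macrophage/monocyte-like) and 4 higher (neutrophil-like). Treated over control gave 2 higher and 1 lower (epithelial-like) and 2 lower (endothelial-like). The plain, uncentred CPM ratio gave 3 lower (epithelial-like) and 2 lower (endothelial-like) in ligated over normal, and 4 lower (endothelial-like) and 6 higher (neutrophil-like) in control tumour over ligated. In treated over control it gave 2 higher and 5 lower (fibroblast-like), 6 lower (epithelial-like), 2 higher (endothelial-like), 3 higher and 2 lower (macrophage/monocyte-like) and 5 lower (neutrophil-like). A pseudocount of 5 CPM gave 3 lower (epithelial-like) and 1 higher (endothelial-like) in ligated over normal, 1 lower (endothelial-like) in control tumour over ligated and 1 lower (epithelial-like) in treated over control. Subtracting 10% of the pooled profile gave 4 lower (endothelial-like) in control tumour over ligated, and 1 lower (fibroblast-like) and 2 lower (neutrophil-like) in treated over control. In the last comparison fibroblast-like cells had 3 higher and 2 lower with doublets kept and 1 lower with technical genes out of the totals. The alternatives with 1 cluster per class, chosen after seeing the data, gave 5 higher (cluster 8), 12 higher and 6 lower (14), 5 lower (15) and 1 higher and 9 lower (3) in control tumour over ligated. In treated over control they gave 7 higher (14), 14 higher (10) and 7 lower (3).

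Signs turned for Gapdh (-0.34) and Pgk1 (-0.39) at Leiden 2.0 in ligated over normal fibroblast-like cells and for Adm in cluster 15 alone (-0.16 in ligated over normal and 1.54 in control tumour over ligated). Both Adm values rest on few ligated UMIs. In cluster 14 alone signs turned for Aldoc (0.38), Ero1l (-0.95, from few tumour UMIs) and Ndrg1 (-0.057) in control tumour over ligated and for Epas1 (0.053) in treated over control. In control tumour over ligated macrophage/monocyte-like cells, Slc2a3 came to 1.36 with doublets kept, 0.96 at Leiden 0.5 and 0.94 with the 36 genes kept among variable genes. In cluster 10 alone Ddit4 came to -0.15, Egln3 to -0.15, Ero1l to -1.53 (from few UMIs) and Hk2 to -0.61. The stricter cell filter moved no count by over 1.5 times. The single-cluster alternatives use other cells. For the rest the cause was not tested. No paired analysis was possible because each group is 1 library. Depth limits the ligated and normal libraries most, where classes hold as few as 26 cells.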
